A study of Mus musculus with 54 samples.

Results

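The 10 genes described here serve antigen presentation by the class I and class II molecules of the major histocompatibility complex (MHC). They were taken by symbol from the deposited table of read counts, where they are 10 of 16632 genes, and all 10 were among the 13169 genes with enough counts to be tested. The class I genes are the heavy chains H2-K1 and H2-D1, the light chain B2m, the peptide transporter subunits Tap1 and Tap2, and the loading factor Tapbp (tapasin). The class II genes are the chains H2-Aa, H2-Ab1 and H2-Eb1 and the invariant chain Cd74.

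RNA was counted in 54 libraries of primary microglia, the brain's own macrophages, from neonatal C57BL/6 mice. Brains were pooled in culture, the cells grew with an astrocyte layer in medium holding supernatant of L929 cells, and the microglia were shaken off that layer. Donor cells received 1 µM of alpha-synuclein (aSyn, a protein that aggregates in Parkinson disease) labelled with the dye Atto-488 for 14 h, and acceptor cells received the CellTracer Violet dye for 15 min. The 2 populations were co-cultured and then separated by flow cytometry. There were 6 libraries of untreated cells, from 4 experiments, and 4 of cells given aSyn without co-culture. Donors gave 3, 4, 4, 3, 4 and 4 libraries at 0, 15, 30, 60, 150 and 300 min, and acceptors gave 3, 4, 4, 4, 4 and 3. Acceptors thus differ from untreated cells by the dye as well as by contact with donors, and whether untreated and aSyn-only cells passed the sorter is not given in the labels. The labels' replicate numbers 1 to 4 are called experiments below. The labels give passage 3 for experiment 1, passage 1 for experiment 2 and passage 2 for experiments 3 and 4, and number the libraries of experiment 4 apart from the rest.

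Total counts per library ranged from 7807389 to 15537493, with a median of 13036175.5. The ribosomal RNA precursor Rn45s held 13.4 to 22.3% of counts in experiment 4 and 1.42 to 13.5% in the other experiments. Each same-numbered pair of untreated libraries (experiments 2 and 4) was summed to 1 sample, which leaves 52 samples. Levels are in CPM, which is a gene's counts scaled to a common library total. Differences are on the log2 scale, and a gene was called at a Benjamini-Hochberg adjusted p under 0.05 over all tested genes in edgeR's quasi-likelihood test. The libraries end-tag transcripts near the poly(A) tail, so a level does not scale with transcript length, but levels are compared here only within a gene.

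Class I molecules stand on nearly all nucleated cells and show peptides from the cell's own proteins to CD8 T cells. A heavy chain pairs with the light chain B2m, the transporter TAP moves peptides into the endoplasmic reticulum, and tapasin holds the empty molecule at the transporter while it is loaded. Class II molecules show peptides from ingested material to CD4 T cells; their chains travel with the invariant chain, which blocks the groove until it is cleaved in the endosome. In resting microglia class II is low, and interferon gamma induces both classes, through the transactivators Nlrc5 for class I and Ciita for class II. C57BL/6 mice lack a working alpha chain for the product of H2-Eb1, so its RNA gives no surface molecule in this strain.

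On GRCm38 with GENCODE vM21, 8 of the 10 genes lie between positions 33915899 and 35267499 of chromosome 17. H2-K1 spans chr17:33996017-34000347 on the minus strand and H2-D1 chr17:35262730-35267499 on the plus strand. Tap1 (chr17:34187553-34197225), Tap2 (chr17:34203527-34216321), H2-Ab1 (chr17:34257689-34269419), H2-Aa (chr17:34282744-34287823, minus strand) and H2-Eb1 (chr17:34305867-34316674) lie between them. B2m is on chromosome 2 (chr2:122147686-122153083). Class I genes resemble each other, and that bears on counting. Of all 50-base stretches at the 3′ ends of the annotated transcripts, 9.60% of those of H2-K1 and 8.92% of those of H2-D1 also occur in other genes, among them each other, so reads there could be split or lost. The share was 4.83% for Tapbp, from Zbtb22, which overlaps it on the same strand, 2.75% for Tap1, from Tap2, and 0 for the other 6 genes. Tap1 overlaps Psmb9 and B2m overlaps Patl2 on the opposite strand, and the use of strand in counting is not given in the sources used here.

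The promoters of both classes hold letters that MHC regulators are known to bind. RefSeq's promoter table for GRCm38.p6 held 7 of the 10 genes (not Tap2, H2-Ab1 and Cd74), and 4 are printed to show the core letters beside each other in class I and class II genes, 180 bases each up to the base before RefSeq's annotated start, read 5′ to 3′ in the direction of the gene. They are H2-K1 at chr17:34000348-34000527 (minus strand), B2m at chr2:122147507-122147686 (plus strand), H2-Aa at chr17:34287824-34288003 (minus strand) and H2-Eb1 at chr17:34305687-34305866 (plus strand). Capitals mark matches, on either strand, to an interferon regulatory factor core (AANNGAAA), an NF-kB site (GGGATTCCC), the X1 (GCAAC) and X2 (TGACG) box cores and the Y box core (CCAAT) of MHC promoters.
H2-K1: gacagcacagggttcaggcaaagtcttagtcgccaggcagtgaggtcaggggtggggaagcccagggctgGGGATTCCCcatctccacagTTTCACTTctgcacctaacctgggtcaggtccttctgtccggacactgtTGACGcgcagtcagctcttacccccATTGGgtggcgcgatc
B2m: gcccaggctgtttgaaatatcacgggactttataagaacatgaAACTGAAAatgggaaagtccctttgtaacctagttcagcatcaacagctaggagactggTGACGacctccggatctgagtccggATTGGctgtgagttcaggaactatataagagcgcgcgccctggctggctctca
H2-Aa: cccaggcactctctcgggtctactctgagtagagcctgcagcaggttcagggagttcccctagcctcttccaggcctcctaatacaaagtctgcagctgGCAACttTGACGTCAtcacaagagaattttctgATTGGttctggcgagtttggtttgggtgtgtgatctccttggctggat
H2-Eb1: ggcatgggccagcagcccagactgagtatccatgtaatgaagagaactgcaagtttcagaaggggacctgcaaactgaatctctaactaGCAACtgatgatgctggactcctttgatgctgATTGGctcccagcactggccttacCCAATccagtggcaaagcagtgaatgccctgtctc
The printed promoters of H2-K1 and B2m carry an interferon regulatory factor core upstream of an X2 core and a Y box core, and H2-K1 also carries the NF-kB letters. H2-Aa has X1, X2 and Y cores in that order, with the X2 letters on both strands as TGACGTCA, while H2-Eb1 has an X1 core and a pair of Y cores. Over the full 250 bases the letters do not divide the classes. H2-Aa holds an interferon regulatory factor core at position -213, Tap1 and Tapbp hold none, and X1 cores occur in H2-D1 and Tap1 as well. All 7 promoters hold a Y core, and those of Tapbp and H2-Eb1 hold no X2 core. Over 250 bases, the interferon regulatory factor core occurs in 21.3% of 32851 promoters, the NF-kB letters in 0.301%, the X1 core in 29.9%, the X2 core in 17.8% and the Y core in 33.9%, so all but the NF-kB letters are common. Upstream of the start, H2-K1 and H2-D1 share 166 of 190 aligned bases (87.4%). A match describes letters and shows no binding.

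H2-K1 was counted with 6968 to 82963 reads per sample and ranged from 573 to 3618 CPM over the 52 samples. Its group means were 1429 ± 1463 CPM (SD, n = 4) in untreated cells and 2005 ± 730.4 CPM (SD, n = 4) with aSyn alone. In donors they were 2251, 2183, 2323, 2106, 2058 and 2072 CPM from 0 to 300 min, with SDs of 363 to 663 (n = 3 or 4). Acceptors stood at 1486, 1426, 1629, 1587, 1479 and 1457 CPM, with SDs of 611 to 924. The order of the 14 groups thus put all 6 donor groups above the aSyn-only group, and that above the acceptors and untreated cells, but no neighbours in this order differed by more than their SDs.

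H2-D1 had the same order of populations, but the other class I genes did not. Donors of B2m at 0 and 60 min (9599 and 9331 CPM) and of Tapbp at 150 and 300 min (854 and 887 CPM) were below aSyn alone (9749.5 and 897 CPM). H2-D1 ranged from 1114 to 4114 CPM, with the lowest group mean in untreated cells (2040.1 CPM) and the highest in donors at 0 min (3030.3 CPM). B2m ranged from 4769.5 to 14183 CPM and Tapbp from 259.3 to 1298 CPM, both with the lowest group mean in untreated cells (7465 ± 4521 and 643 ± 452 CPM, SD, n = 4). Tap1 ranged from 41.3 to 303 CPM, with group means of 131 ± 115 CPM in untreated cells and 172 ± 70.5 CPM with aSyn alone (SD, n = 4 each), 144 to 178 CPM in donors and 90.9 to 131 CPM in acceptors. Tap2, the other subunit of the transporter, ranged from 16.5 to 110.3 CPM, and its lowest group mean was that of aSyn alone, 31.7 ± 4.04 CPM (SD, n = 4).

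For most class I genes the experiment accounted for more of the spread than the groups. It accounted for 43.7% of the variation of log2 CPM of H2-K1 over the samples, against 28.6% for the 14 groups. The shares were 57.0 and 24.7% for H2-D1, 49.3 and 26.2% for B2m and 52.5 and 19.9% for Tapbp. For Tap1 they were about equal, at 30.1 and 31.3%, and for Tap2 the groups held more, 21.97% against 15.0%. Without experiment 4, the experiment held 73.7% and the groups 14.3% of the variation of Tap1, and 69.8 and 17.2% of that of H2-K1.

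**Figure D1:**
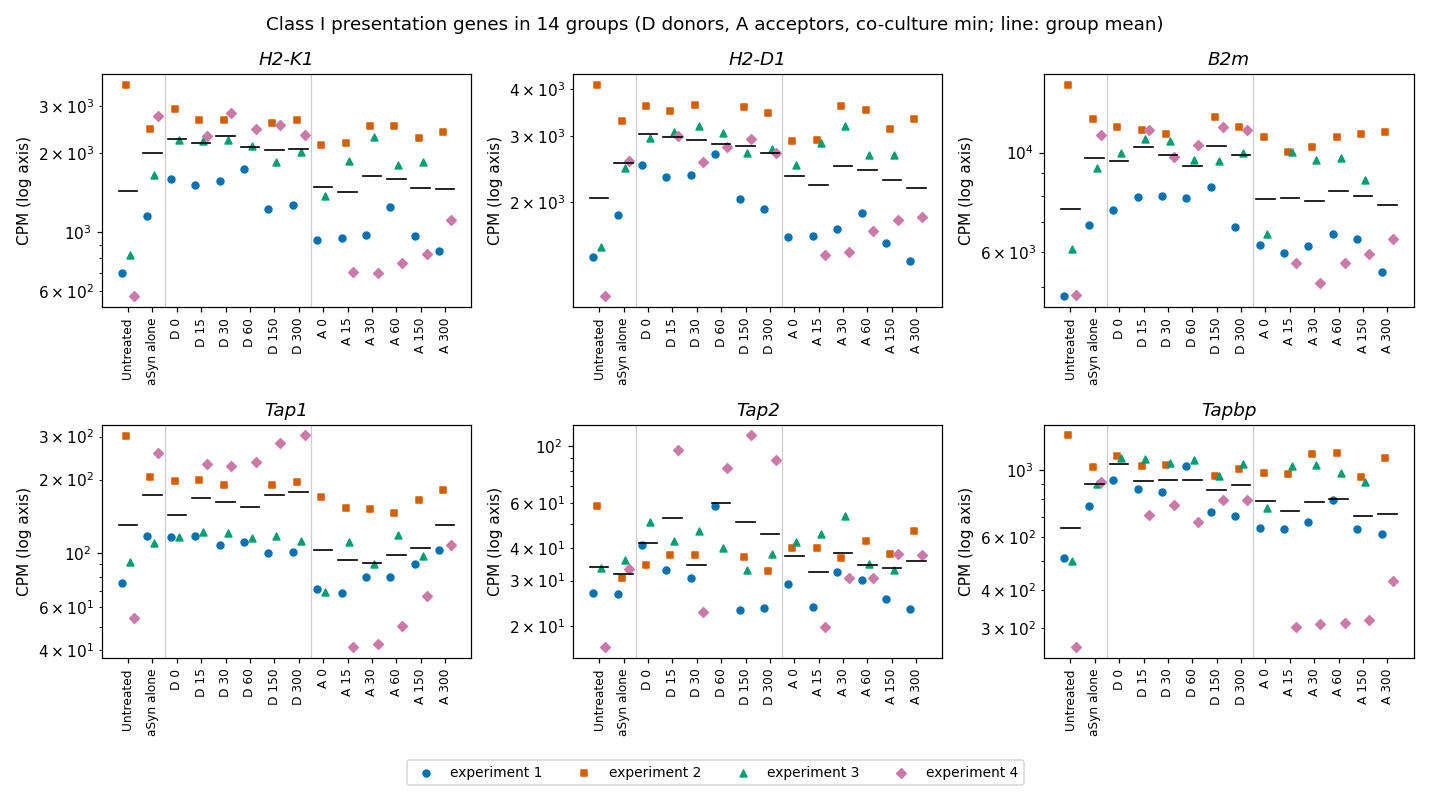
Levels of the 6 class I genes in CPM (log axis) in each of the 52 samples, by group on the horizontal axis and with 1 symbol per experiment; the lines mark group means. The untreated sample of experiment 2 is at 3618 CPM for H2-K1 while the other untreated samples are at 573 to 823 CPM, and the acceptors of experiment 4 lie below its donors for each gene but Tap2.

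The first question is whether aSyn changed presentation genes in cells that were never co-cultured. H2-K1 stood at 703, 3618, 823 and 573 CPM in untreated cells of experiments 1 to 4, and at 1158, 2464, 1653 and 2746 CPM in the aSyn-treated cells of the same experiments. It was higher with aSyn in experiments 1, 3 and 4 and lower in experiment 2, whose untreated cells held more H2-K1 than any aSyn-treated sample, so the groups overlap. Tap1 repeated this, with 75.4, 301, 92.3 and 54.4 CPM untreated and 118, 205, 110.1 and 256.1 CPM with aSyn. Tapbp stood at 512, 1298, 500.4 and 259.3 CPM untreated and at 759.7, 1024, 897 and 909 CPM with aSyn. For H2-K1, H2-D1, B2m, Tap1 and Tapbp alike, aSyn-treated cells were higher in 3 of 4 experiments and lower in experiment 2.

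The size of the difference depended on the experiment. For H2-K1 it was 0.72, -0.55, 1.01 and 2.26 log2 units in experiments 1 to 4, and for Tap1 0.64, -0.56, 0.25 and 2.23. B2m, the chain that every class I molecule needs, differed by 0.53, -0.25, 0.60 and 1.19, and H2-D1 by 0.38, -0.32, 0.70 and 1.21. Tap2 differed by -0.01, -0.93, 0.11 and 1.01, higher in 2 of 4 experiments.

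None of the 10 genes was called between aSyn-treated and untreated cells, where 2.5% of all tested genes were. H2-K1 differed by 0.49 ± 0.468 log2 units (SE; edgeR quasi-likelihood test, adjusted p = 0.641) and B2m by 0.39 (adjusted p = 0.536). At an unadjusted p under 0.05 the count was also 0, and DESeq2 called 0. The median difference was 0.39 for the 6 class I genes and -0.04 for all tested genes. With the experiment as a block, in which 19.2% of all genes were called, 1 of 10 passed: Tapbp, at 0.68 ± 0.241 (SE, adjusted p = 0.0416). In that fit the adjusted p was 0.0560 for B2m, 0.0782 for H2-D1, 0.0829 for H2-K1 and 0.316 for Tap1. Leaving out experiment 2 from the blocked fit raised the count to 4 of 10, and leaving out experiment 3 or 4 brought it to 0. The shares of all genes called in those fits are not given here. Without experiment 4, the unblocked difference of H2-K1 was 0.04 and that of Tap1 -0.11.

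**Figure D2:**
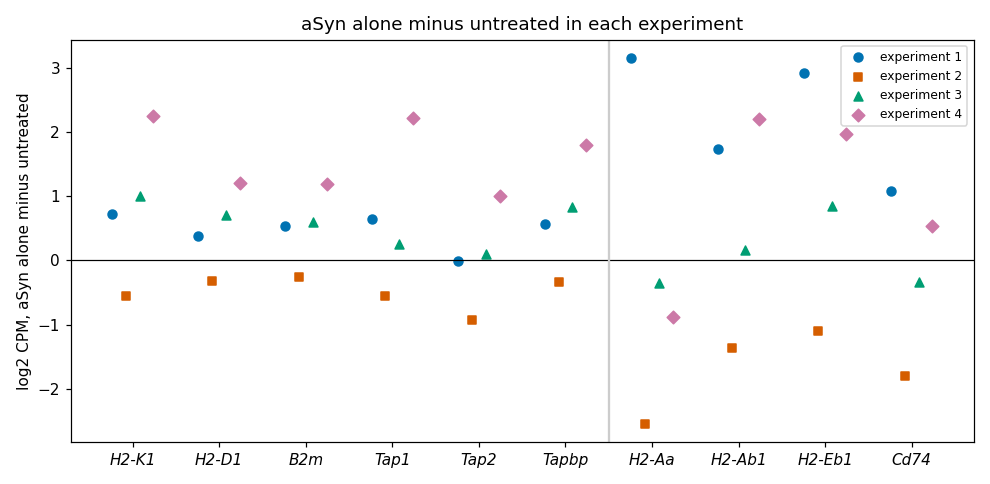
Difference of log2 CPM, aSyn alone minus untreated, for each of the 10 genes and each of the 4 experiments (1 symbol each). Experiment 2 lies below 0 for all 10 genes, and experiment 4 is the highest for each of the 6 class I genes, at 2.26 for H2-K1.

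The untreated cells of experiment 2 came from 2 libraries that were alike: H2-K1 was at 3715 and 3578 CPM. Some marker lists of other cells were highest in them too. Their summed endothelial markers were at 29.0 CPM against 4.54, 10.4 and 9.72 CPM in untreated cells of experiments 1, 3 and 4, and their border macrophage markers at 1009 CPM against 587, 769 and 683 CPM. Each sum rested mostly on a single gene. Means over the untreated samples were 12.7 CPM for Kdr, 0.297 CPM for Pecam1 and 0.449 CPM for Cdh5. For Ms4a7 and Mrc1 of the border macrophage list they were 586.6 and 174.3 CPM. The part of these markers in the level of the MHC genes was not tested. Summed oligodendrocyte markers were lowest in the untreated cells of experiment 2, at 115.6 CPM against 199.4, 531.9 and 166.0 CPM in experiments 1, 3 and 4. Fibroblast markers were lowest there too, at 0.0872 CPM against 0.807, 8.31 and 17.1 CPM. B cell markers were highest, at 0.305 CPM against 0.101, 0.257 and 0.151 CPM. The part of these lists was not tested either. The astrocyte, dendritic cell and microglia lists did not set this sample apart. Its summed astrocyte markers were at 19.4 CPM, within the 11.7 to 128 CPM of the untreated samples. Its dendritic cell markers were at 14.3 CPM within 8.74 to 29.9 CPM, and its microglia markers at 4609 CPM within 3623 to 4980 CPM. Passage 1 occurs in experiment 2 alone, so passage and experiment cannot be told apart there.

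Acceptors were compared with untreated cells to see whether contact with aSyn-loaded cells moved the genes in cells given none. None of the 10 was called at any of the 6 times, where 0, 0, 0.114, 0.0683, 0.137 and 0% of all genes were called at 0, 15, 30, 60, 150 and 300 min. With the experiment as a block the background was 0.995, 2.25, 3.6, 4, 4.78 and 0.623%, and 0 members were called. DESeq2 called 0 at each time. At an unadjusted p under 0.05 the count was 1 at 0 min, with or without the block, and 0 at the other 5 times: H2-Aa at 0 min differed by -2.29 log2 units (edgeR, unadjusted p = 0.0246, adjusted p = 0.826). H2-K1 in acceptors was below the untreated cells of experiment 2 at all 6 times, by -0.76 to -0.51, and above those of the other experiments at every time measured, by 0.28 to 0.83 in experiment 1, 0.75 to 1.48 in experiment 3 and 0.29 to 0.95 in experiment 4. In the fit over all experiments the class I median difference was 0.04 to 0.18 log2 units over the 6 times.

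Donors were compared with cells given aSyn alone, to see whether co-culture itself moved the genes in aSyn-loaded cells. None of the 10 was called at any time, with or without the block, against 0, 0, 0, 0, 0 and 0.0304% of all genes from 0 to 300 min and 0, 0, 0, 0, 0 and 0.304% with the block. DESeq2 called 0 at each time. At an unadjusted p under 0.05 there was 1 member at 60 min in both fits and 0 at the other times: Tap2, which differed by 0.93 log2 units at 60 min (edgeR, unadjusted p = 0.0329, adjusted p = 1). H2-K1 of donors stayed within -0.24 to 0.59 log2 units of the aSyn-only cells of its own experiment, and Tap1 within -0.23 to 0.24. The class I median was 0.05 to 0.19 log2 units over the 6 times.

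Donors and acceptors of the same co-culture were then compared. H2-K1 in donors lay at 1226 to 1739 CPM in experiment 1 (lowest to highest over 6 times, median 1540), 2599 to 2923 CPM in experiment 2, 1848 to 2238 CPM in experiment 3 and 2320.4 to 2836 CPM in experiment 4. Acceptors of the same experiments lay at 853 to 1248, 2143 to 2537, 1380 to 2300 and 702 to 1111 CPM. Donors were the higher of the pair in 20 of 21 pairs of the same experiment and time, and in experiment 4 even the lowest donor sample was above the highest acceptor sample. The same count was 20 of 21 for H2-D1 and B2m, 19 of 21 for Tap1 and Tapbp, and 12 of 21 for Tap2. These pairs share 4 experiments, so they are not 21 independent comparisons.

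For Tap1 the difference in experiment 4 was several times that in the others. Tap1, whose product forms the transporter with that of Tap2, stood at 232.3, 227, 237, 283 and 303 CPM in donors of experiment 4 at 15, 30, 60, 150 and 300 min and at 41.3, 42.4, 50.6, 66.6 and 108 CPM in its acceptors. Untreated cells of that experiment held 54.4 CPM, between the acceptors at 60 and 150 min, and aSyn alone held 256.1 CPM, within the range of the donors. In experiments 1 to 3 donors of Tap1 held 101 to 118, 189 to 199 and 112 to 122 CPM, and acceptors 68.4 to 103, 146 to 181 and 69.3 to 118 CPM. The mean difference over times for Tap1 was thus 0.42, 0.25, 0.31 and 2.14 log2 units in experiments 1 to 4.

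Experiment 4 had the largest mean difference for each of the other class I genes too, while the order of experiments 2 and 3 varied. H2-K1 differed by 0.58, 0.23, 0.23 and 1.62, H2-D1 by 0.51, 0.16, 0.11 and 0.78, and B2m by 0.34, 0.10, 0.19 and 0.91. Tapbp differed by 0.34, 0.01, 0.17 and 1.17 log2 units, with 301 to 430 CPM in acceptors and 672 to 796 CPM in donors of experiment 4. Markers of cell types moved with these differences in experiment 4. Summed microglia markers stood at 1563 to 1836 CPM in its donors and 1787 CPM with aSyn alone, against 3183 to 3565 CPM in its acceptors and 3623 CPM untreated, and summed endothelial markers at 16.1 to 32.3 CPM in donors against 5.515 to 13.1 CPM in acceptors. Of the endothelial markers, Kdr ranged from 2.73 to 31.4 CPM over all samples, and Pecam1 and Cdh5 reached at most 3.05 and 1.57 CPM. Rn45s also held more of the counts in experiment 4. The part of these markers and of Rn45s in the differences was not tested.

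**Figure D3:**
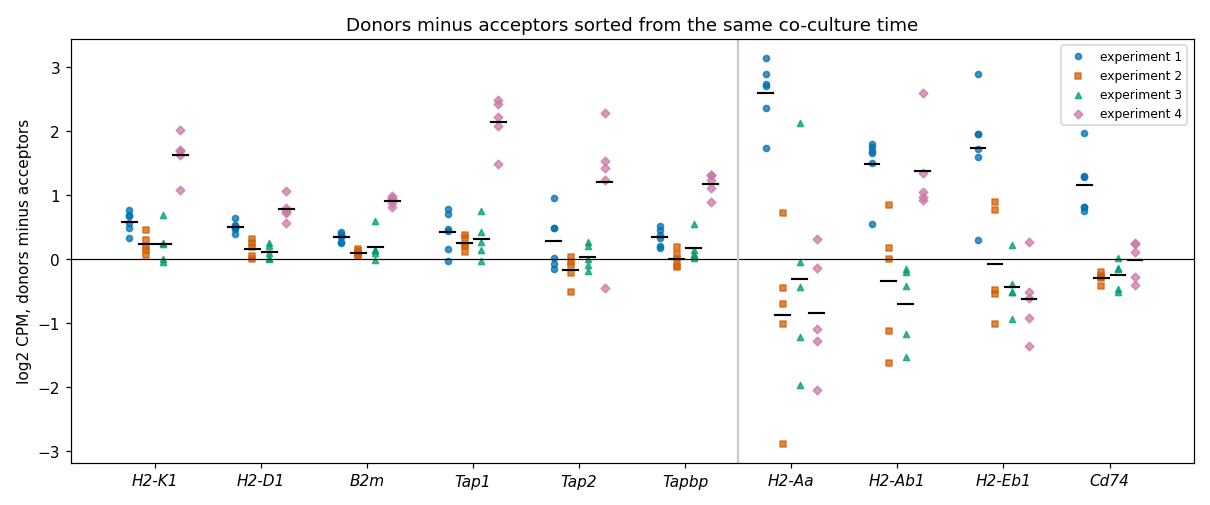
Difference of log2 CPM, donors minus acceptors, for each of the 10 genes in the 21 pairs of the same experiment and co-culture time, by experiment; black lines mark the mean of an experiment. Experiment 4 stands highest for the 6 class I genes (mean 1.62 for H2-K1 and 2.14 for Tap1), and experiment 1 for the 4 class II genes (mean 2.60 for H2-Aa).

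At single times none of the 10 was called between donors and acceptors, where 0.251, 0.888, 0.805, 0.418, 0.167 and 0.0304% of all genes were called from 0 to 300 min. With the block none was called either, against 4.28, 9.57, 10.8, 6.7, 5.19 and 1.38% of all genes. DESeq2 called 0 at each time. At an unadjusted p under 0.05 there was 1 member at 0 min without the block (H2-Aa, 2.15 log2 units) and 0 at the other times. With the block there were 2, 4, 3, 4, 1 and 1 members. The share of all genes at that unadjusted threshold is not given here, so these counts are not read against a background. H2-K1 differed by 0.60, 0.61, 0.51, 0.41, 0.48 and 0.51 log2 units from 0 to 300 min, with SEs of 0.468 to 0.5405, and Tap1 by 0.47, 0.84, 0.83, 0.65, 0.72 and 0.44.

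Averaged over the 6 times, 1 of 10 was called, where 25.6% of all genes were: Tap1, higher in donors by 0.66 ± 0.203 log2 units (SE; edgeR, adjusted p = 0.0139). H2-K1 differed by 0.52 (adjusted p = 0.0516), B2m by 0.32 (0.0570), Tap2 by 0.41 (0.0669), H2-D1 by 0.31 (0.102) and Tapbp by 0.29 (0.191). The class I median was 0.37 and that of all tested genes -0.02. With the block, where 44.3% of all genes were called, the 6 class I genes were called and the 4 class II genes were not. H2-K1 differed by 0.64 ± 0.132 (SE, adjusted p = 1.31e-04), H2-D1 by 0.39 (5.25e-05), B2m by 0.38 (1.09e-04), Tap1 by 0.70 (2.89e-04), Tapbp by 0.40 (0.00153) and Tap2 by 0.39 (0.038).

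These averages treat the times of an experiment as separate samples, although they share an experiment. With the counts of all times summed, so that 4 donor samples stood against 4 acceptor samples with the experiment as a block, 0 of 10 were called and 1.2% of all genes were. The sizes hardly moved: H2-K1 differed by 0.65 ± 0.254 (SE; edgeR, unadjusted p = 0.042, adjusted p = 0.204), Tap1 by 0.73 (adjusted p = 0.232), B2m by 0.39 (0.277) and H2-D1 by 0.39 (0.217). At an unadjusted p under 0.05 there were 2 members, and the share of all genes at that threshold is not given here. Without experiment 4 the unblocked average for Tap1 fell to 0.24 (adjusted p = 0.407) and with the block to 0.33 (adjusted p = 5.81e-04); H2-K1 stood at 0.28 and 0.38, of which the blocked value was called (adjusted p = 0.00146). In bulk samples, fewer cells of a type and less RNA per cell cannot be told apart.

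No change of these genes over co-culture was called in either population. None of the 10 was called in the F test over the 6 donor times (0.0607% of all genes called) or the 6 acceptor times (0.00759%). With the block none was called against 0.577 and 0.137% of all genes. DESeq2 called 0 in both, and without the block 0 members had an unadjusted p under 0.05. The difference between donors and acceptors did not vary detectably over time for any of the 10 (edgeR interaction test, adjusted p = 1 with and without the block).

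Tap2 departed from Tap1 in experiment 4. Its donors held 96.4, 22.5, 82.4, 110.3 and 88.4 CPM at 15, 30, 60, 150 and 300 min, while the aSyn-only cells of that experiment held 33.3 CPM and its acceptors 19.7 to 38.1 CPM. The sample at 30 min was thus at the level of acceptors, while its Tap1, at 227 CPM, was at the level of the other donors. In experiment 2 acceptors held more Tap2 than donors at 4 of 5 times.

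The class II genes were counted at low depth. H2-Aa had 1 to 169 counts per sample, with 3 samples at or under 3 counts, H2-Eb1 had 3 to 95 counts (2 samples at or under 3), H2-Ab1 12 to 202 and Cd74 70 to 968. H2-Aa ranged from 0.076 to 7.37 CPM, H2-Ab1 from 0.738 to 16.6 CPM, H2-Eb1 from 0.303 to 5.68 CPM and Cd74, the invariant chain, from 6.72 to 42.2 CPM. Group means of H2-Aa ran from 0.589 ± 0.276 CPM in acceptors at 0 min (SD, n = 3) to 3.35 ± 1.97 CPM in donors at 60 min (SD, n = 3), and those of Cd74 from 11.8 ± 3.89 CPM in acceptors at 15 min to 17.3 ± 16.7 CPM in untreated cells (SD, n = 4 each). Differences under the spread of such counts were not detectable at this depth.

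The untreated cells of experiment 2 were the highest untreated sample for class II as well. Cd74 stood at 7.57, 42.2, 10.3 and 8.97 CPM in untreated cells of experiments 1 to 4 and at 16.3, 12.01, 8.11 and 13.1 CPM with aSyn. H2-Ab1, the beta chain of the class II molecule that this strain makes, stood at 1.41, 7.41, 1.54 and 3.47 CPM untreated and at 5.08, 2.77, 1.75 and 16.6 CPM with aSyn. H2-Aa, the alpha chain of that molecule, stood at 0.202, 7.37, 0.857 and 3.02 CPM untreated and at 3.02, 1.14, 0.636 and 1.57 CPM with aSyn. H2-Aa was thus lower with aSyn in 3 of 4 experiments and H2-Ab1 higher in 3 of 4, and neither passed the test (-0.87 and 0.89 log2 units).

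Between donors and acceptors the class II genes split by experiment. In experiment 1 all 4 were higher in donors at 6 of 6 times: H2-Aa held 3.09 to 5.61 CPM (median 3.93) in donors and 0.214 to 0.977 CPM (median 0.607) in acceptors, and Cd74 held 13.3 to 26.7 CPM (median 22.7) and 6.72 to 12.6 CPM (median 9.92). These ranges do not overlap. In experiments 2 and 3 the mean differences were -0.87 and -0.31 log2 units for H2-Aa, -0.34 and -0.70 for H2-Ab1, -0.08 and -0.43 for H2-Eb1 and -0.29 and -0.25 for Cd74. In experiment 4 H2-Ab1 alone of the 4 was higher in donors on average, with 14.8, 10.6, 11.3, 14.7 and 15.8 CPM against 2.33, 5.51, 4.35, 7.42 and 7.58 CPM in acceptors from 15 to 300 min. H2-Aa in experiment 4 was lower in donors by -0.85 on average, so the chains of 1 molecule moved apart. Averaged over times, H2-Ab1 differed by 0.86 (edgeR, adjusted p = 0.0648), and the others by 0.19 to 0.36 (adjusted p of 0.433 to 0.503). Without experiment 1 the averages of H2-Aa, H2-Eb1 and Cd74 turned to -0.63, -0.46 and -0.22.

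**Figure D4:**
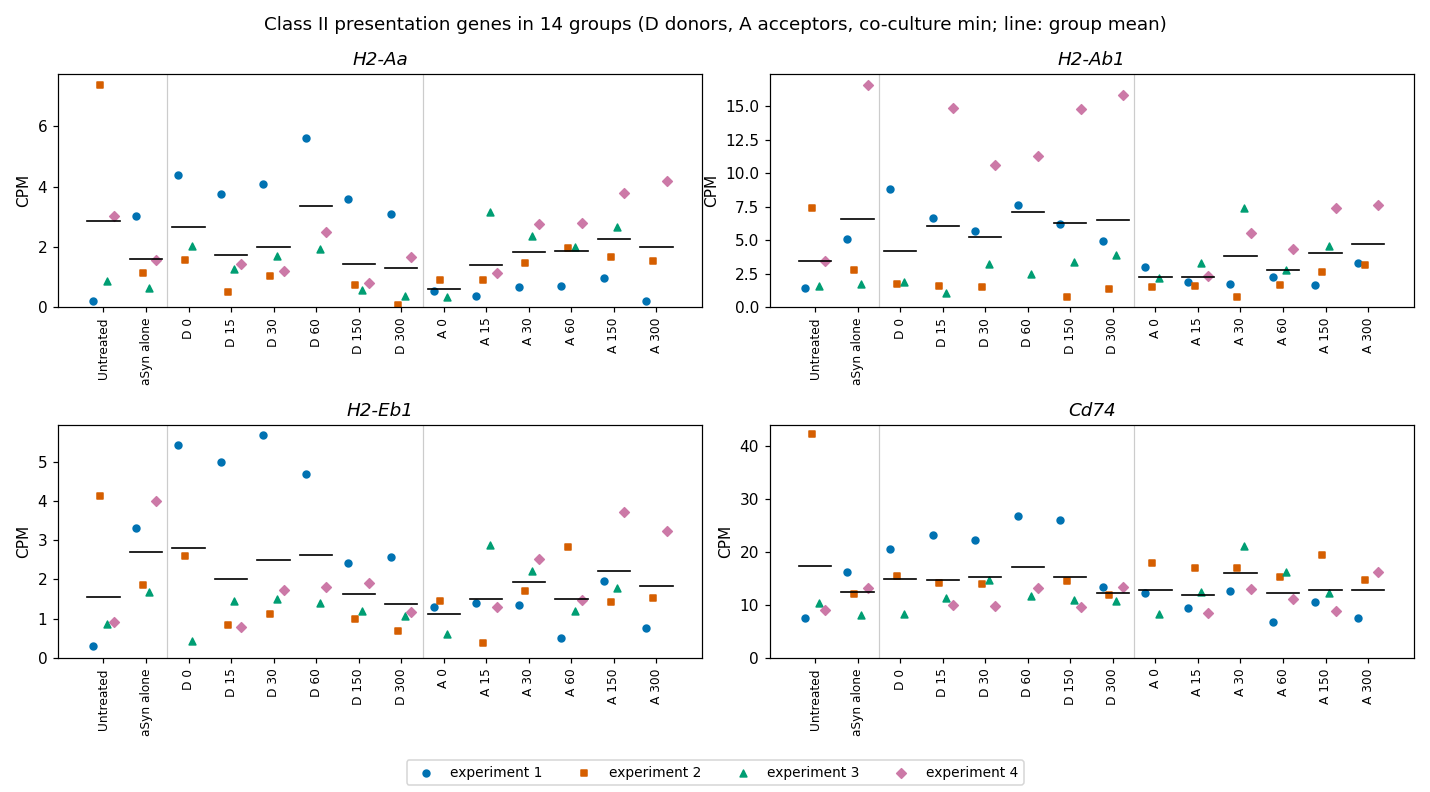
Levels of the 4 class II genes in CPM (linear axis) in each of the 52 samples, by group and with 1 symbol per experiment; the lines mark group means. Donors of experiment 1 stand above its acceptors for all 4 genes, and the aSyn-treated samples of experiment 4 reach 10.6 to 16.6 CPM for H2-Ab1.

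The class I members moved together, and with experiment means removed H2-Ab1 moved with them as much as with its own class. With the mean of each experiment removed, the correlation of log2 CPM over the 52 samples was 0.98 between H2-K1 and Tapbp, 0.95 with B2m, 0.88 with Tap1, 0.61 with Tap2 and 0.19 with H2-Aa. H2-Aa correlated at 0.77 with Cd74 and 0.73 with H2-Eb1. H2-Ab1 correlated at 0.66 with H2-K1, 0.67 with H2-D1 and 0.66 with B2m, and at 0.48 with H2-Aa, 0.54 with H2-Eb1 and 0.65 with Cd74. As measured, with experiments left in, this did not hold. H2-Ab1 then correlated at 0.06 with H2-K1, -0.06 with H2-D1, 0.03 with B2m, 0.22 with Tap1, 0.37 with Tap2 and -0.17 with Tapbp. Within its own class it correlated at 0.51 with H2-Aa, 0.50 with H2-Eb1 and 0.21 with Cd74. These samples share experiments and groups, so the values are a description.

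The genes of all tested whose pattern was most like the class I mean, with experiment means removed, were Psmb8 (0.947), Ms4a4c (0.946), Fcgr4 (0.945), Psmb10 (0.943) and Isg20 (0.943). As measured they were Psmb8 (0.958), Zbp1 (0.940), Siglec1 (0.9395), Coa5 (0.939) and Ms4a4c (0.931). Psmb8 and Psmb10 encode catalytic subunits of the immunoproteasome. For the class II mean with experiment means removed the leading genes were Dnase1l3 (0.687), Axl (0.673), Aif1 (0.658), Vamp8 (0.653) and Ifi27l2a (0.649), and as measured B4galt5 (0.560), Srebf2 (0.548), Tmem50b (0.543), Fcgr2b (0.542) and Fcgr3 (0.525). The likeness to the class I mean was 0.700 for its transactivator Nlrc5 and 0.0499 for Irf1, a transcription factor of the interferon gamma pathway.

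The rest of the presentation pathway was counted in lists of known genes. Of all tested genes, 2.5% were called for aSyn against untreated cells without the block and 19.2% with it. For aSyn against untreated cells without the block, 0 of 5 immunoproteasome and activator genes, 0 of 5 trimming and folding genes, 0 of 11 tested class Ib genes, 0 of 9 class II loading genes, 1 of 8 tested transactivator genes (Rfxap, 0.58 log2 units, edgeR adjusted p = 0.0189), 0 of 9 interferon gamma pathway genes and 2 of 7 costimulation genes were called, all of them higher. The 2 were Cd86 (1.32, adjusted p = 0.0262), a ligand for CD28 on T cells, and Icam1 (1.08, adjusted p = 0.0384), an adhesion ligand. With the block, Calr (0.38), March1 (0.75), Rfxank (0.60), Ifngr2 (0.54), Jak1 (0.26), Jak2 (0.68) and Cd274 (1.57) were called as higher as well, and Rfx5 (-0.61), Nfyb (-0.39) and Ifngr1 (-0.47) as lower. March1 is a ubiquitin ligase that removes class II and Cd86 from the surface, and Cd274 (PD-L1) restrains T cells.

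For donors against acceptors averaged over times without the block, where 25.6% of all genes were called, 3 of 5 immunoproteasome and activator genes were higher: Psmb8 and Psmb10 (0.51 each) and Psme2 (0.63), a subunit of the proteasome activator. Of the class Ib genes, whose products present to innate-like T cells or natural killer cells, 7 of 11 were higher: H2-Q7 (2.44), H2-Q6 (1.86), H2-Q5 (1.54), H2-T10 (1.21), H2-T22 (1.13), Cd1d1 (0.83) and H2-M3 (0.48). Class I genes resemble each other, and the likeness among the H2-Q and H2-T genes was not measured here, so their counts are uncertain. H2-DMa (0.55), which helps load class II, and March1 (0.59) were the 2 of 9 called in their list, and Calr (0.35), a chaperone of class I folding, the 1 of 5 in its list, both shares near that of all genes.

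Among the regulators the calls went both ways. Nlrc5 (0.40, edgeR adjusted p = 0.0367) and Nfyc (0.27) were higher, while Rfx5 (-0.34), Nfyb (-0.43) and Creb1 (-0.25) were lower, 5 of 8 in all. The products of Rfx5, Nfyb and Creb1 bind the X and Y boxes. Ciita was not tested: 33 of 52 samples had at most 3 counts of it, with a median of 0.174 CPM. Jak2 (0.70) and Socs1 (0.92), the feedback inhibitor of the pathway, were higher and Ifngr1 (-0.53), the receptor chain that binds interferon gamma, and Irf2 (-0.36) lower, 4 of 9. Of the costimulation genes 4 of 7 were higher: Cd274 (1.59), Cd40 (1.56), Cd86 (1.03) and Icam1 (0.51).

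With the block 44.3% of all genes were called, and a list's count reads against that share. The counts of higher genes were 5 of 5 for the immunoproteasome list, adding Psmb9 (0.58) and Psme1 (0.35), 3 of 5 for folding, adding Pdia3 (0.17) and Tapbpl (0.35), and 10 of 11 for class Ib, adding H2-T24 (0.51), H2-Q4 (0.64) and Mr1 (0.32). They were 6 of 9 for class II loading, adding H2-DMb2 (0.79), H2-Oa (0.84), Ctss (0.16) and Lgmn (0.16), and 5 of 7 for costimulation, adding Cd80 (0.80). The interferon gamma pathway had 5 of 9 genes higher, Ifngr2 (0.17) and Jak1 (0.14) among those added, and 2 lower, and the transactivators 2 of 8 higher and 4 lower, adding Nfya (-0.19). With the times of an experiment summed, 1 of all these genes was called: Cd86, at 1.06 log2 units (edgeR, adjusted p = 0.0424).

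Among markers of other immune cells, those of dendritic, B and T cells were low and those of border macrophages were not. Summed border macrophage markers stood at 587 to 1009 CPM in untreated cells, 629 to 954 CPM with aSyn, 628 to 1014 CPM in donors and 502 to 878 CPM in acceptors. Ms4a7, which ranged from 309 to 909 CPM, made up most of that sum. Lyve1 and Cd163, of the same list, reached at most 0.559 and 0.487 CPM. Summed dendritic cell markers stood at 8.74 to 29.9 CPM in untreated cells, 11.6 to 38.5 CPM with aSyn, 8.47 to 37.0 CPM in donors and 4.87 to 31.7 CPM in acceptors. B cell markers reached at most 1.31 CPM and T cell markers 0.774 CPM, none of them with enough counts to be tested, and microglia markers held 1563 to 5564 CPM over all samples. Between donors and acceptors averaged over times with the block, 44.3% of all genes were called. Microglia markers were called both ways, 4 of 10 higher (Tmem119, P2ry12, Aif1 and Itgam) and 5 lower (Cx3cr1 and Trem2 among them). Of the tested endothelial markers 2 of 3 were higher (Pecam1 and Kdr). That fit treats the times of an experiment as separate samples. With the times summed, where 1.2% of all genes were called, 0 of 10 microglia markers were called and 1 of 3 endothelial markers was higher. The part of these markers in the donor and acceptor differences was not tested. Astrocyte markers, from the layer the cells were shaken off, had a median sum of 48.8 CPM in untreated cells and 15.7 CPM with aSyn. Of these 8 markers 0 were called in edgeR without the block, where 2.5% of all genes were. With the block 4 were called as lower, where 19.2% of all genes were called. The median differences of the list without and with the block were -2.14 and -1.90 log2 units. Summed oligodendrocyte markers had a median of 183 CPM in untreated cells and 134 CPM with aSyn, and neuron markers 13.3 and 2.99 CPM. Without the block 0 of 6 oligodendrocyte and 0 of 4 tested neuron markers were called. With the block 2 of 6 and 1 of 4 were called as lower. The part of these markers in the differences between aSyn-treated and untreated cells was not tested.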

How the data were processed

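Per the file headers, the authors deposited raw counts by gene symbol for 54 libraries and a normalized signal for the same genes. Libraries were QuantSeq 3′ FWD, read as 50 bp single reads, per the labels' protocols. The submitters' processing notes name STAR, Partek, DESeq2 and mm10, with versions and roles not given in the sources used here. The deposited signal equalled the count divided by a median-of-ratios size factor (0.634 to 1.34) in 100% of values, within 0.051, and was used for that check only. The members and the gene lists were chosen with earlier results of these data known.

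Groups were taken from the labels and compared with edgeR 4.0.16 (with limma 3.58.1, in R 4.3.3): TMM scaling, a filter by filterByExpr (minimum count 10), and quasi-likelihood F tests from 1 fit of the means of all 14 groups. There were 19 pairwise comparisons, 1 average over times and 2 F tests over time, with Benjamini-Hochberg adjustment over 13169 genes. Counts of members at an unadjusted p stand without the share of all genes at that threshold. The biological coefficient of variation was 38.1%, and 21.0% with the experiment as a block. CPM use TMM-scaled library sizes, and log2 CPM a prior count of 2. Same-numbered untreated libraries gave a chi-square of 12.1 and 10.3 per degree of freedom, against 24.2 to 288 for other untreated pairs, and were summed.

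The pairing comes from the replicate numbers in the labels: same-numbered samples deviated together from their group means in 69 of 69 pairs (correlation across genes of 0.199 to 0.764, mean 0.486), each over 0.1. The labels do not say that the experiments used separate animals, so p-values measure the spread between these samples, which may be technical. No molecular identifiers are stated, so counts may hold PCR copies. The text names, beside the 10 members, the genes of the pathway lists called in either fit for aSyn against untreated cells or for the average of donors against acceptors, and the 5 genes most like each class mean, with and without experiment means removed; 1 gene that this rule names is not reported here. Alternatives were DESeq2 1.42.0, its size factors, no count filter, a fit of the compared groups only, the block, each experiment left out, and times summed (times summed, and experiments left out under the block, were added after seeing the data). The fits were tested on simulated counts.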

Additional observations from a re-analysis of the deposited data

Results flagged for a closer look

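Among 100 sets of a member's values in a group of 4 samples, 12 held a sample whose gap to the nearest other value passed Dixon's limit. For independent sets of normally distributed values chance gives about 1 in 20. These sets share samples and genes that vary together, so the 12 are not independent and are not set against that rate. The untreated cells of experiment 2 stood out upward in 6: H2-K1 at 3618 CPM (others 573 to 823), H2-D1 at 4114 CPM (others 1114 to 1514), B2m at 14183 CPM (others 4769.5 to 6092), Tap1 at 301 CPM (others 54.4 to 92.3), H2-Eb1 at 4.14 CPM (others 0.303 to 0.905) and Cd74 at 42.2 CPM (others 7.57 to 10.3).

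The other 6 were donors, and 0 were acceptors. In experiment 1, B2m at 15 min was low at 7978 CPM (others 10704 to 11236), H2-Eb1 was high at 15 min (4.99 CPM, others 0.793 to 1.44) and 30 min (5.68 CPM, others 1.12 to 1.72), and H2-Aa at 150 min was high at 3.597 CPM (others 0.561 to 0.803). In experiment 4, Tap2 was high at 15 min (96.4 CPM, others 33.0 to 42.9) and 150 min (110.3 CPM, others 23.01 to 37.0).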

How the results depend on the processing

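The data come from 4 experiments, and the count of members called differed between fits. Between aSyn-treated and untreated cells the count of members called was 0 without and 1 with the replicate block, and 0 to 4 when an experiment was left out. For donors against acceptors at 0 min it was 0 to 2 when an experiment was left out. For the average over times it was 1, against 6 with the replicate block, 2 with DESeq2's size factors, 3 in a fit of the compared groups alone, 4 with DESeq2, 0 with times summed with or without the block, and 0 to 7 when an experiment was left out. The cause of these changes in count was not tested. Of all genes, 25.6% were called in that average, 44.3% with the block and 1.2% with times summed with the block. For aSyn against untreated cells the shares were 2.5% without and 19.2% with the block. The shares of all genes in the other fits are not given here, so those counts are not read against a background. The signs of low or opposed values turned with single experiments, given here as log2 ranges over fits with and without the replicate block that leave out 1 experiment. For aSyn against untreated cells they were -0.11 to 1.15 for Tap1 (lowest without experiment 4), -0.34 to 0.35 for Tap2, -1.87 to 0.34 for H2-Aa and -0.88 to 0.51 for Cd74 (each highest without experiment 2), and -0.51 to 1.86 for H2-Ab1 (lowest without experiment 4). For the average they were -0.66 to 0.78 for H2-Aa, -0.46 to 0.63 for H2-Eb1 and -0.22 to 0.395 for Cd74, each lowest without experiment 1. The block changed no call of a member in the other comparisons. Class II counts of 1 to 968 per sample limit what could be detected there.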
